A study of Mus musculus with 10 samples.

Results

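The Reg lectins and a set of other epithelial antimicrobial and bacterial recognition proteins were examined in mouse jejunum. The set was given by name and holds 10 genes of the 55414 gene identifiers counted: the lectins Reg1, Reg3a, Reg3b, Reg3g and Reg4, and Retnlb, Lypd8, Pglyrp1, Saa1 and Saa2. All 10 matched an identifier. RNA was sequenced from the jejunum, the middle stretch of the small intestine, of male C57BL/6J mice. The 5 control libraries carried the genotype RetSat flox/flox villin-Cre-ERT2 (-) and the 5 RetSat ko libraries carried RetSat flox/flox villin-Cre-ERT2 (+). Both groups therefore carried floxed alleles of Retsat, which encodes retinol saturase, both were given tamoxifen by intraperitoneal injection for 5 days, and both then ate a 60 kcal% high-fat diet for 14 weeks. The villin promoter drives the tamoxifen-dependent recombinase Cre-ERT2 in the gut epithelium, so other cells of the tissue keep the floxed alleles intact. Loss of Retsat and presence of the active recombinase cannot be told apart in this design. Ages are not given in the sources used here, and the labels do not state that each library came from a separate animal. The p-values therefore refer to the variation among these libraries, part of which may be technical.

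Reg proteins are small secreted proteins with a C-type lectin fold. In the gut, REG3G and REG3B are made by enterocytes and Paneth cells. REG3G binds peptidoglycan and kills Gram-positive bacteria, and REG3B is best known for its action on Gram-negative bacteria. Both genes are induced through STAT3 by interleukin 22 from lymphoid cells and through MyD88-dependent sensing of microbes. RELM-beta, encoded by Retnlb, is a goblet cell protein that damages bacterial membranes, and LYPD8 is an anchored and shed protein that binds flagella and keeps motile bacteria off the epithelium. PGLYRP1 is a peptidoglycan recognition protein with bactericidal activity. The serum amyloid A proteins SAA1 and SAA2 carry retinol and are acute-phase products of liver and gut epithelium, which ties the set to vitamin A, the substrate pathway of the deleted enzyme.

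Of the lectin genes, 4 lie in one cluster on chromosome 6 (GRCm39). Reg3b (ENSMUSG00000071356.8, 78347640 to 78350449), Reg3a (ENSMUSG00000079516.3, 78357692 to 78360810) and Reg1 (ENSMUSG00000059654.8, 78399694 to 78405650) are on the plus strand, and Reg3g (ENSMUSG00000030017.3, 78443252 to 78445855) is on the minus strand. The group begins 5762 kb beyond Retsat on the same chromosome. The sequences directly upstream of their start sites are shown because the results turn on how these genes of one cluster move together or apart. Each is the 250 bases before the RefSeq start site in GRCm38.p6, written 5′ to 3′ on the gene's strand. Capitals mark matches, on either strand, to the palindromic STAT motif TTCNNNGAA and to the TATA-box letters TATAAA. The windows are chr6:78370635-78370884 (plus) for Reg3b, chr6:78468875-78469124 (minus) for Reg3g, chr6:78425733-78425982 (plus) for Reg1 and chr6:78380459-78380708 (plus) for Reg3a.
Reg3b: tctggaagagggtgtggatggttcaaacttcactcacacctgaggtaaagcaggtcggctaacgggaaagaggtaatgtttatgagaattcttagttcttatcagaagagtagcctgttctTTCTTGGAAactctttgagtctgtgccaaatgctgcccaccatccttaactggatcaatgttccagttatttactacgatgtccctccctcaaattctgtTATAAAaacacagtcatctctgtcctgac
Reg3g: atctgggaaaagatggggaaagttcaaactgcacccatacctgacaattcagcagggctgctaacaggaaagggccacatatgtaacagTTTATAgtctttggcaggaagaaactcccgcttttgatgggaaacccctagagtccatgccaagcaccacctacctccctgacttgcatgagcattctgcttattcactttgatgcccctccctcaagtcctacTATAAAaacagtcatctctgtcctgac
Reg1: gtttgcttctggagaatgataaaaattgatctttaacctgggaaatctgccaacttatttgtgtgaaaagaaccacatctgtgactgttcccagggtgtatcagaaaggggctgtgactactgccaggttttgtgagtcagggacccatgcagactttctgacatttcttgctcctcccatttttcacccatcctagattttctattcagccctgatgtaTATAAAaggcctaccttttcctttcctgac
Reg3a: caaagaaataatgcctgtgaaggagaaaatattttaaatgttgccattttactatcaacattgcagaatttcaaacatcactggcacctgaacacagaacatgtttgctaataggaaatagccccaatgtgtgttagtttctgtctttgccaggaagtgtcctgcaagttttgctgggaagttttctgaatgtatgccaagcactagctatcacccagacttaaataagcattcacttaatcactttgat

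Reg3b and Reg3g share 70.0% of 247 aligned bases in these windows, and both end in the same 20 bases, acagtcatctctgtcctgac, directly before the start. The share of 70.0% is not particular to this pair. Reg3a and Reg3g share 71.9% of 199 aligned bases, and Reg1 and Lypd8 share 66.7% of 210. The TATAAA letters stand 29 to 24 bases before the start in Reg3b, 27 to 22 in Reg3g and 30 to 25 in Reg1. Reg3g holds a second match on the other strand 161 to 156 bases before the start. A STAT match occurs in Reg3b alone among the 9 genes of the set with a promoter entry, as TTCTTGGAA 129 to 121 bases before the start. Of 32851 promoter windows of this length, 7.0% hold a STAT match and 12.4% hold TATAAA. Another motif, AGGTCA, the half-site of retinoic acid and related nuclear receptors, searched on both strands, matched in Saa1 and Saa2 alone of the 9 genes and in 14.0% of all windows. A match describes letters in this window and is not a tested binding site. No entry for Retnlb was found in the table.

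Levels are CPM, counts per 1000000 counts of the TMM-adjusted library. Retsat itself averaged 441 ± 101 CPM in the controls and fell to 19.6 ± 7.76 CPM in the RetSat ko libraries (SD over 5 libraries), a log2 fold change of -4.49 ± 0.277 (SE, edgeR adjusted p = 0.000101). Libraries held 102844680 to 128730695 counts. The tissue label was checked against region markers. Gata4, a factor of the proximal small intestine, lay between 172 and 228 CPM, Fabp6, an ileal bile acid carrier, reached at most 0.300 CPM, and the colonic Car1 at most 0.035 CPM. Some libraries held more RNA typical of other tissue. Summed over 16 pancreatic acinar genes, 4 libraries, called acinar-rich here, exceeded 100 CPM: RetSat ko 2 (3227), RetSat ko 1 (581), control 5 (329) and control 4 (156). Summed over 9 B cell genes, RetSat ko 2 (156), control 4 (65.3) and RetSat ko 3 (43.1) exceeded 40 CPM and are called B cell-rich, and a hepatocyte list reached 140.4 CPM in RetSat ko 5 against at most 17.6 CPM in the other libraries. Of the 8 adipocyte markers, Cidec alone held 117 to 230.03 CPM. Over the other 7, RetSat ko 5 (64.0), RetSat ko 4 (49.3), RetSat ko 3 (32.7) and control 3 (27.6) exceeded 20 CPM, against 14.1 CPM or less elsewhere, and are called adipocyte-rich.

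Across the set, 0 of the 8 genes that could be tested passed the threshold of 0.05 on edgeR's Benjamini-Hochberg adjusted p, where 6 of 18654 genes, 0.0322%, passed. Retnlb and Saa2 had too few counts to be tested. Reg3b, Reg3g, Pglyrp1 and Saa1 had an unadjusted p under 0.05, all with higher levels in RetSat ko, so 4 of 8, where 6.79% of all tested genes were higher and 12.2% passed in either direction at that level. Over the 8 genes the median log2 fold change was 0.25, against 0.020 over all tested genes. These contrasts are descriptive, because the set was chosen with earlier results of these data known. Reg3b and Reg3g also moved together (r 0.98) and are not separate observations. DESeq2, as another tool, called Pglyrp1 (adjusted p = 0.000296) where it called 0.659% of genes, and none of the other 7 genes.

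**Figure D1:**
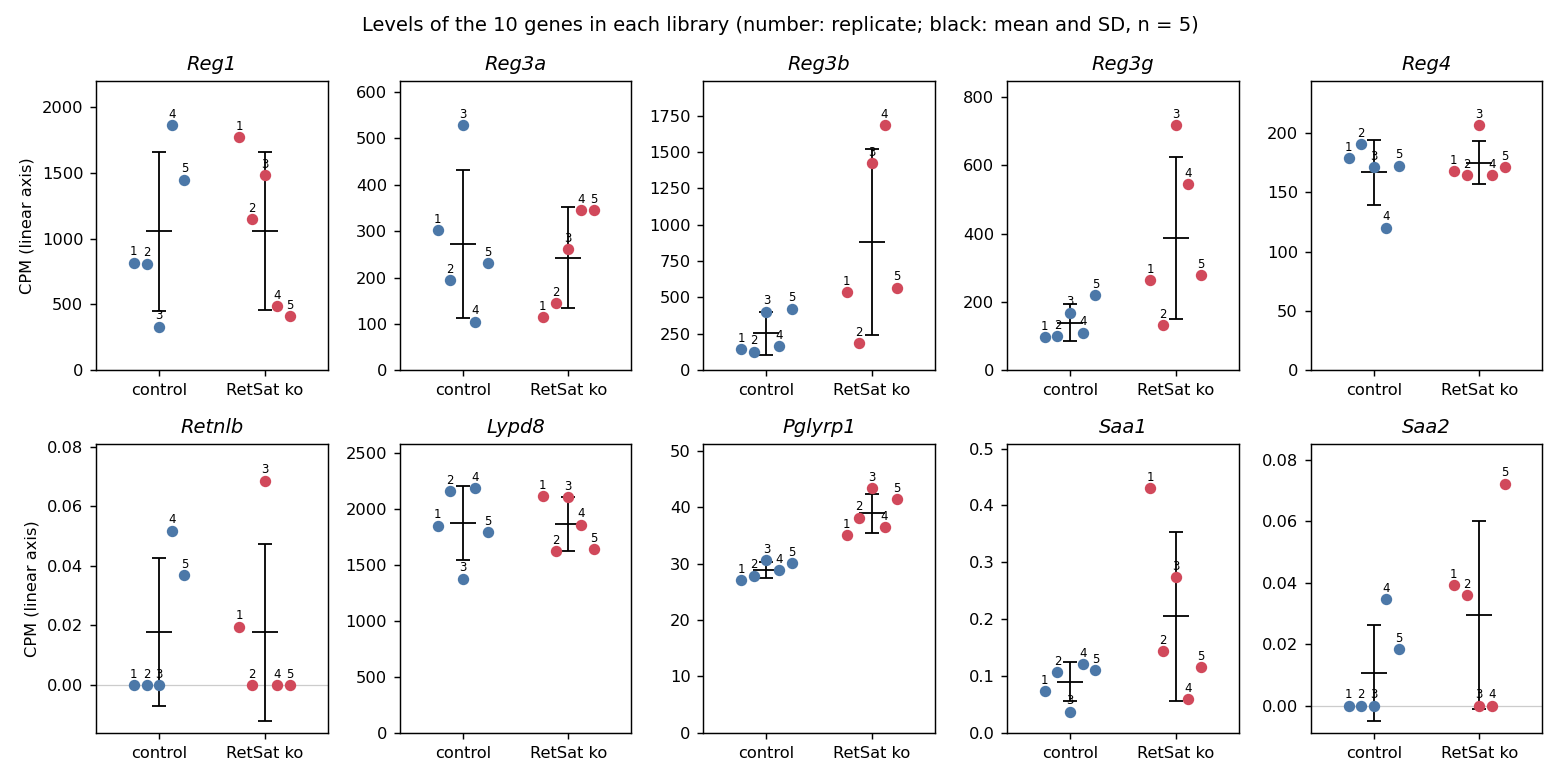
CPM of each of the 10 genes in each library on linear axes, control in blue and RetSat ko in red, with the replicate number beside each point and the mean and SD (n = 5) in black. Pglyrp1 is the gene whose groups do not overlap, 4 RetSat ko libraries lie above every control for Reg3b and Reg3g, and Reg1, Reg3a, Reg4 and Lypd8 overlap widely.

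Reg3b, the lectin with the larger difference, averaged 253 ± 147 CPM across controls and 879 ± 639 CPM across RetSat ko libraries (SD over 5 libraries), 3.48 times as high. Control libraries 1 to 5 held 143, 128, 403, 167 and 423 CPM, and RetSat ko libraries 1 to 5 held 535, 189, 1421, 1684 and 568 CPM. Of the RetSat ko libraries 4 lay above every control, and RetSat ko 2 lay among the controls. Within RetSat ko the level was thus uneven, with libraries 3 and 4 far above libraries 1 and 5. In edgeR the difference was 1.80 ± 0.640 on the log2 scale (SE), with a 95% interval from 0.34 to 3.25 and an edgeR adjusted p of 0.333. Leaving out 1 library at a time left it between 1.42, without RetSat ko 4, and 2.06, without control 5. Without the 4 acinar-rich libraries it was 2.44 (edgeR adjusted p = 0.230) and without the 3 B cell-rich libraries 1.75 (edgeR adjusted p = 0.977). Leaving out the 4 adipocyte-rich libraries, among them RetSat ko 3 and 4, lowered it to 0.74 (edgeR adjusted p = 0.999), with 4 controls and RetSat ko 1 and 2 remaining.

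Reg3g, the lectin that acts on Gram-positive bacteria, followed a similar order of libraries. Control libraries held 96.3, 101, 169, 110 and 221 CPM, and RetSat ko libraries held 264, 132, 717, 545 and 279 CPM. Again 4 RetSat ko libraries exceeded every control, while RetSat ko 2 fell between control libraries 4 and 3. The means were 139 ± 54.0 and 388 ± 238 CPM (SD, n = 5 each), a ratio of 2.78. On the log2 scale edgeR estimated a difference of 1.48 ± 0.465 (SE), with a 95% interval from 0.42 to 2.53 and an edgeR adjusted p of 0.314. It was 1.13 without RetSat ko 3 and 1.70 without control 5, the ends of the range over single omissions. Without the acinar-rich libraries it was 2.07 (edgeR adjusted p = 0.183) and without the B cell-rich libraries 1.30 (edgeR adjusted p = 0.977). It was 0.58 without the adipocyte-rich libraries (edgeR adjusted p = 0.999). The part of adipocyte RNA, or of what else those libraries share, in the Reg3b and Reg3g differences was not tested.

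Reg3b and Reg3g varied together, within each genotype as well as across both. Over the 10 libraries the Pearson correlation of their log2 CPM was 0.98 (Spearman 0.98). It was 0.97 within the 5 control libraries, 0.98 within the 5 RetSat ko libraries and 0.98 without the 2 libraries farthest from the median, RetSat ko 3 and 4. These points share library, depth and tissue composition, and the correlation is a description. Their transcripts are 73.4% identical, yet no 75-base window of any of the 5 lectins' longest protein-coding transcripts occurs in a transcript of another gene. Reads of the pair could therefore be told apart, and the ratio of Reg3b to Reg3g counts, in which gene length is constant, still ranged from 1.27 in control 2 to 3.09 in RetSat ko 4.

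**Figure D2:**
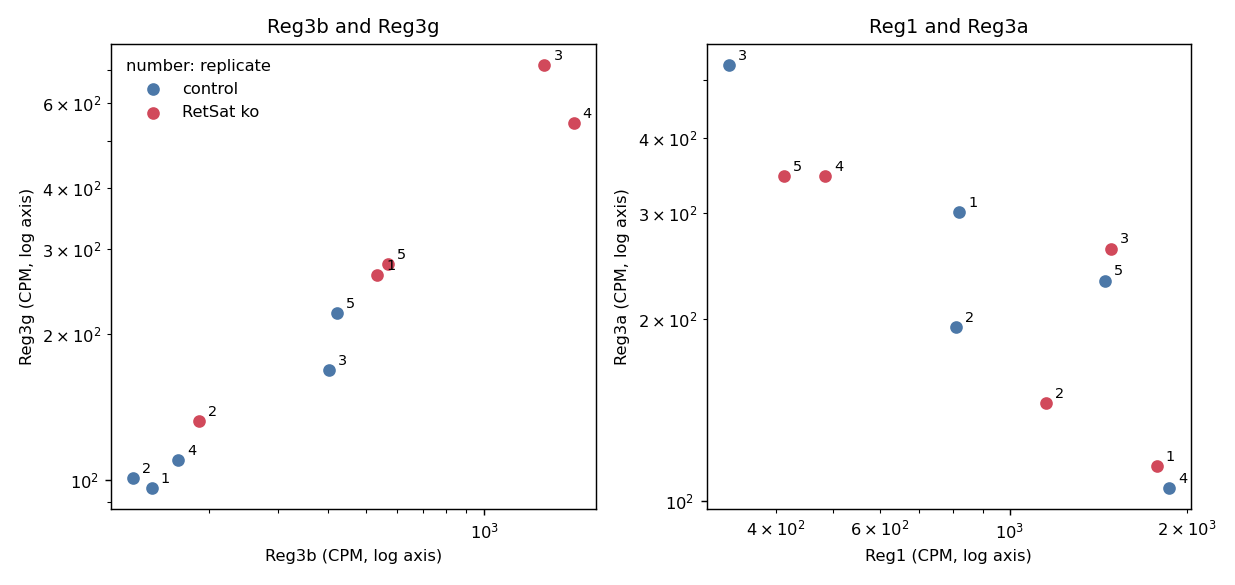
Levels of gene pairs in the 10 libraries, in CPM on log axes, with control in blue, RetSat ko in red and the replicate number beside each point. Reg3b and Reg3g rise along one line (Pearson r of log2 CPM 0.98), and Reg1 is high where Reg3a is low (r -0.85).

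Among 12426 genes of at least 1 CPM, the genes most like Reg3b after Reg3g were Alpk1 (r 0.93) and Tifa (r 0.93), and those most like Reg3g after Reg3b were Alpk1 (r 0.94) and Ddt (r 0.90). ALPK1 is the kinase that senses bacterial ADP-heptose, and TIFA is the adaptor it phosphorylates on the way to NF-κB. Alpk1 held 1.28, 1.10, 1.88, 2.06 and 2.35 CPM in control and 2.02, 1.64, 5.32, 5.40 and 2.52 CPM in RetSat ko. As for the lectins, RetSat ko 3 and 4 were highest. Tifa held 7.98, 7.25, 17.1, 9.34 and 9.60 CPM in control and 13.1, 9.31, 21.2, 29.7 and 17.8 CPM in RetSat ko. Neither gene passed the test (log2 fold change 0.96 for Alpk1, edgeR adjusted p = 0.337, and 0.83 for Tifa, edgeR adjusted p = 0.371). Without RetSat ko 3 and 4 the correlation of Reg3b was 0.81 with Alpk1 and 0.85 with Tifa. Within groups it was 0.90 and 0.89. Tifa was highest in the 4 adipocyte-rich libraries, RetSat ko 4, 3 and 5 and control 3. Alpk1 was highest in RetSat ko 4, 3 and 5, while control 3 held 1.88 CPM of it, less than control 4 and 5. The part of adipocyte RNA, or of what else those libraries share, in these correlations was not tested.

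Markers of Paneth cells, the crypt-base cells that secrete antimicrobial peptides, moved in part with these lectins. The 9 genes of the Paneth list were tested and had positive log2 fold changes, with a median of 0.83, where 10056 of all 18654 tested genes were positive. None of the 9 passed the adjusted threshold and 6 had an unadjusted p under 0.05, where 6.79% of all tested genes were higher at that level. The summed level of the 9 was 984 to 3013 CPM in control and 1860.5 to 4405 CPM in RetSat ko. It was highest in RetSat ko 3, and none of the 9 was at 0 in all libraries. Lyz1, Paneth lysozyme, averaged 640 CPM in control and 1022 CPM in RetSat ko, and the alpha-defensin Defa24 averaged 539 and 966 CPM. The summed Paneth level correlated with Reg3b at r = 0.60 and with Reg3g at r = 0.71 over 10 libraries. The order was not the same, since RetSat ko 4, highest for Reg3b, held 2319 CPM of Paneth transcripts, less than control 5 with 3013 CPM. The trait was not particular to Paneth cells. The summed level of 10 enteroendocrine markers correlated with Reg3b at r = 0.57 and with Reg3g at r = 0.64, and 9 of these 10 had positive log2 fold changes. The 12 absorptive enterocyte markers had negative log2 fold changes, with a median of -0.32, where 8598 of all 18654 tested genes were negative. None of the 12 passed the adjusted threshold and 4 had an unadjusted p under 0.05, where 5.45% of all tested genes were lower at that level. The sum of the 12 ran from 45685 to 71638 CPM in control and from 42790 to 62442 CPM in RetSat ko. In whole tissue, more or fewer cells of a type and more or less RNA per cell cannot be told apart. The part of cell composition in the Reg3b and Reg3g differences was not tested.

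**Figure D3:**
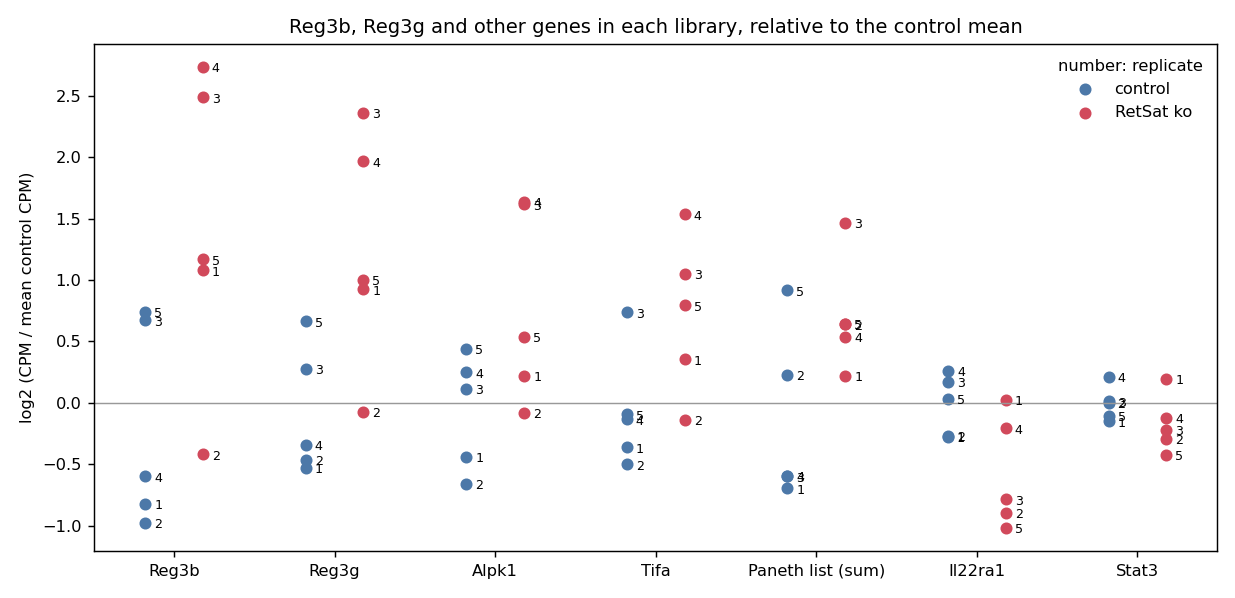
Log2 of CPM relative to the control mean in each library for Reg3b, Reg3g, Alpk1, Tifa, the summed Paneth marker list, Il22ra1 and Stat3, with control in blue, RetSat ko in red and replicate numbers beside the points. RetSat ko 3 and 4 stand highest for the first 4 genes, whereas the Il22ra1 and Stat3 points of RetSat ko overlap or lie below those of control.

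Reg1 and Reg3a, from the same cluster on chromosome 6, gave another picture. Reg1, first described as a regenerating protein of pancreatic islets and also made in the small intestine, held 819, 810.4, 332, 1864 and 1451 CPM in control and 1775, 1152, 1483, 485 and 413 CPM in RetSat ko. The means were 1055 ± 602 and 1062 ± 602 CPM (SD, n = 5 each), and the groups overlapped over nearly their whole ranges. The fitted log2 fold change was 0.01 ± 0.539 (SE, edgeR adjusted p = 0.997). Its 95% interval, from -1.21 to 1.22, still includes changes of more than a doubling in either direction.

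Reg3a, another member of the Reg3 subfamily, held 301, 194, 529, 105 and 232 CPM in control and 114, 145, 262, 346 and 346 CPM in RetSat ko. Its means were 272 ± 160.0 and 243 ± 109 CPM (SD, n = 5 each), and the groups overlapped. Its fitted log2 fold change was -0.17 ± 0.468 (SE), with a 95% interval from -1.23 to 0.90 and an edgeR adjusted p of 0.910. Leaving out control 3, the library with the most Reg3a, gave 0.22.

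Across libraries Reg1 and Reg3a ran opposite to each other, with a Pearson correlation of -0.85 (Spearman -0.84, 10 libraries). It was -0.89 within control and -0.81 within RetSat ko. Without control 3 and RetSat ko 5, the libraries farthest from the median of Reg1, it was -0.73. The ratio of Reg1 to Reg3a CPM ran from 0.628 in control 3 to 17.8 in control 4. Reg1 and Reg3b, by contrast, had a correlation of -0.18, and Reg3a and Reg3b of 0.38. Within groups the correlation of Reg3a was 0.56 with Reg3b and 0.47 with Reg3g. The 4 genes thus held a pair that moved together and a pair that moved apart, with Reg3a in part following Reg3b and Reg3g within groups.

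**Figure D4:**
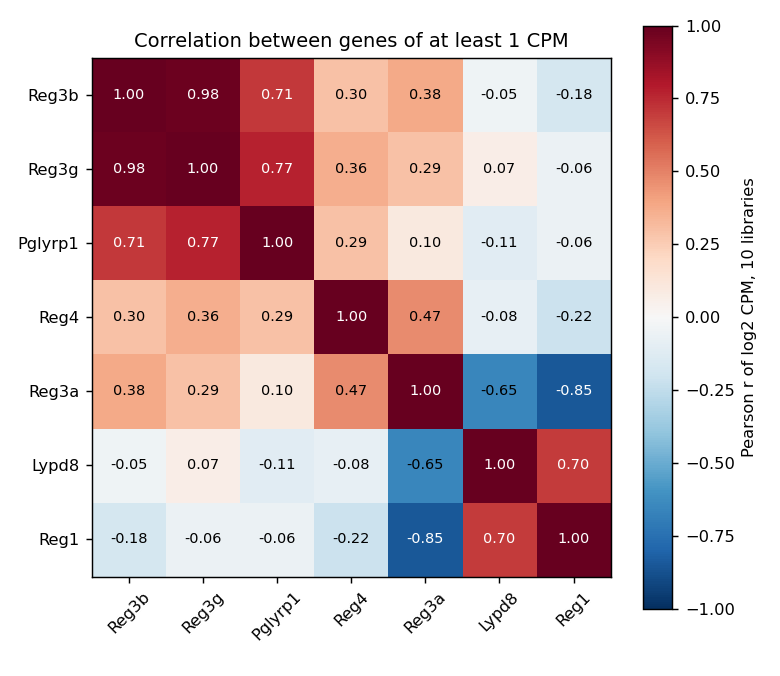
Pearson correlation of log2 CPM over the 10 libraries between the 7 genes of the set with at least 1 CPM on average, from -1 (blue) to 1 (red). The cell of Reg3b and Reg3g (0.98) and that of Reg1 and Reg3a (-0.85) hold the highest and lowest values.

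The genes most like Reg1 were Chodl (r 0.95), a chondrolectin that is also a C-type lectin, Fzr1 (r 0.94), an activator of the anaphase-promoting complex, and the sulfate transporter Slc13a1 (r 0.94). Slc13a1 ranged from 61.2 CPM in RetSat ko 5 to 439 CPM in control 4. Those most like Reg3a were Pid1, the transcription factor gene Osr2 and Tmem86a (r 0.96 each). Osr2 ran from 0.104 CPM in control 4 to 25.7 CPM in control 3, the libraries at the ends of the Reg3a range. Control 3 is adipocyte-rich, and the adipocyte-rich RetSat ko 3, 4 and 5 held 6.23, 18.3 and 13.4 CPM of Osr2. Control 1, which is not adipocyte-rich, held 8.60 CPM. These correlations kept values of 0.87 to 0.95 without the 2 libraries farthest from the median of each lectin. None of these 6 genes differed between genotypes past the threshold (edgeR adjusted p from 0.767 to 0.995).

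The summed acinar level correlated with Reg1 at r = 0.61 and with Reg3a at r = -0.69 on the log2 scale. Other lists gave similar values. A goblet cell list reached r = 0.66 with Reg1 and -0.58 with Reg3a, and the B cell list 0.56 and -0.59. In the acinar-rich control 4, RetSat ko 1, control 5 and RetSat ko 2, Reg1 held 1864, 1775, 1451 and 1152 CPM. The others held 332 to 819 CPM, except RetSat ko 3, with 1483 CPM of Reg1 and 64.1 CPM of acinar transcripts. Reg3a held 105, 114, 232 and 145 CPM in the acinar-rich libraries and 194 to 529 CPM in the others. RetSat ko 2, with 3227 CPM of acinar transcripts, was the lowest of the 4 for Reg1. Without the 4 acinar-rich libraries the log2 fold change was 0.28 for Reg1 (edgeR adjusted p = 0.869) and -0.10 for Reg3a (edgeR adjusted p = 0.919). Without the 3 B cell-rich libraries it was 0.05 for Reg1 and -0.23 for Reg3a. Without the 4 adipocyte-rich libraries, which include control 3, it was 0.24 for Reg1 and -0.69 for Reg3a (edgeR adjusted p = 0.999 for both). In the adipocyte-rich libraries Reg3a held 529 CPM (control 3), 262 CPM (RetSat ko 3) and 346 CPM (RetSat ko 4 and 5). Elsewhere it held 105 to 301 CPM. The part of acinar, goblet cell, B cell or adipocyte RNA in the Reg1 and Reg3a levels was not tested.

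Reg4 (ENSMUSG00000027876.5, chromosome 3, 98129472 to 98144064, plus strand), a lectin of enteroendocrine and goblet cells, was the steadiest of the 5. It lay between 120.2 and 191 CPM with a median of 173 CPM in control, and between 164 and 207 CPM with a median of 168 CPM in RetSat ko. Control 4 was low and RetSat ko 3 high against libraries that otherwise stayed within 164 to 191 CPM. Between genotypes it differed by 0.07 ± 0.116 on the log2 scale (SE), with a 95% interval from -0.18 to 0.32 and an edgeR adjusted p of 0.835. Leaving out the acinar-rich libraries gave 0.0045, and leaving out the B cell-rich libraries gave -0.093. The 10 enteroendocrine markers summed to 519.6 CPM in control 4 and 734 CPM in RetSat ko 3, the lowest and highest of the 10 libraries, and their part in the Reg4 level was not tested.

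The spread between libraries of one genotype separates the chromosome 6 lectins from the other genes of the set with at least 1 CPM. The pooled within-group SD of log2 CPM was 0.96 for Reg1, 0.80 for Reg3a, 1.07 for Reg3b and 0.77 for Reg3g. Among 13227 expressed genes the median SD was 0.17, and 97.2 to 98.4% of them had a smaller SD than these 4 lectins. Reg4 (0.21) and Lypd8 (0.23) lay closer to the median and Pglyrp1 (0.10) below it. Saa1 (0.81), Saa2 (0.96) and Retnlb (1.06) spread as widely as these lectins, at very low counts.

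Pglyrp1 (ENSMUSG00000030413.8, chromosome 7, 18605256 to 18624384, plus strand), the peptidoglycan recognition protein, was higher in each of the 5 RetSat ko libraries than in any control. Control libraries held 27.1, 27.9, 30.6, 28.8 and 30.1 CPM, and RetSat ko libraries held 35.1, 38.1, 43.4, 36.5 and 41.4 CPM. Non-overlapping groups occurred in 2.31% of all tested genes, and in 1.58% with RetSat ko higher. The means were 28.9 ± 1.46 and 38.9 ± 3.45 CPM (SD, n = 5 each), a ratio of 1.35. Its log2 fold change was 0.43 ± 0.0714 (SE), with a 95% interval from 0.27 to 0.58. With an unadjusted p of 5.675e-05, Pglyrp1 had rank 10 of 18654 genes, and its edgeR adjusted p was 0.106.

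The side of the threshold on which Pglyrp1 fell changed with the fit. It passed with DESeq2 (adjusted p = 0.000296), with limma-voom and sample weights (adjusted p = 0.0349, 0.0536% of genes) and in edgeR without RetSat ko 1 (adjusted p = 0.0216), where 4.45% of all genes passed. Without the 4 acinar-rich libraries the log2 fold change was 0.50 (edgeR adjusted p = 0.164) and without the 3 B cell-rich libraries 0.38 (edgeR adjusted p = 0.977). It was 0.36 when the adipocyte-rich ones were left out (edgeR adjusted p = 0.999). Pglyrp1 is also stored in neutrophil granules. The neutrophil list summed to 1.92 to 2.72 CPM in control and 1.77 to 2.73 CPM in RetSat ko, and the neutrophil alarmins S100a8 and S100a9 averaged under 0.025 CPM in both groups. The summed Paneth level correlated with Pglyrp1 at r = 0.74, the enteroendocrine sum at r = 0.55 and the enterocyte sum at r = -0.55. The part of cell composition in the Pglyrp1 difference was not tested. Pglyrp1 correlated with Reg3g at r = 0.77 over all libraries and at r = 0.48 within groups.

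**Figure D5:**
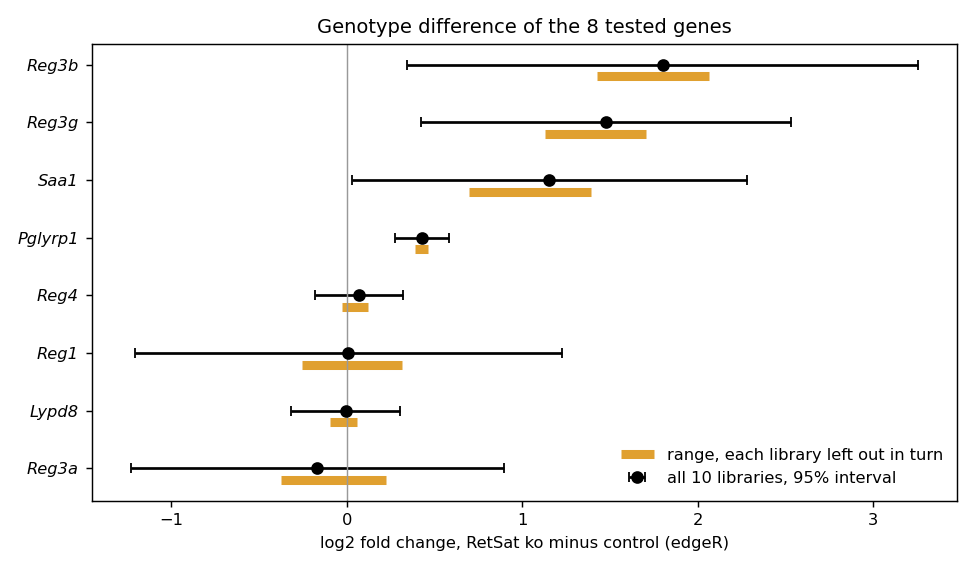
Log2 fold change of RetSat ko against control for the 8 tested genes from edgeR, as points with 95% intervals in black, and in orange the range when each library is left out in turn. The intervals of Reg3b, Reg3g, Saa1 and Pglyrp1 lie above 0 before adjustment, and those of Reg1 and Reg3a span from below -1 to about 1.

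Genes with a pattern like that of Pglyrp1 were Psph (r 0.94), which encodes an enzyme of serine synthesis, and the splicing factor gene Txnl4a (r 0.93). Within groups these correlations were 0.55 and 0.45. Psph, for example, lay at 6.27 to 6.52 CPM in control and 7.07 to 7.71 CPM in RetSat ko. Neither passed the threshold (edgeR adjusted p = 0.314 for Psph and 0.216 for Txnl4a).

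Lypd8 (ENSMUSG00000013643.14, chromosome 11, 58269869 to 58281554), the flagellum-binding protein, lay between 1377 and 2187 CPM with a median of 1851 CPM in control, and between 1620.0 and 2113 CPM with a median of 1859 CPM in RetSat ko. The RetSat ko range fell inside that of control. The log2 fold change was -0.0037 ± 0.143 (SE, edgeR adjusted p = 0.995), and its 95% interval ran from -0.31 to 0.31. It was 0.058 when acinar-rich and 0.053 when B cell-rich libraries were left out. The genes most like it were Zbp1 (r 0.94), Oas1g (r 0.93) and Oas1a (r 0.93), which are sensors of viral or unusual nucleic acids induced by interferon. Zbp1, at 13.5 CPM, and Lypd8 were both lowest in control 3. Lypd8 also ran opposite to Reg3a, with r = -0.65 over 10 libraries, -0.91 within control and -0.24 within RetSat ko. With Reg1 its correlation was 0.70, and 0.32 without control 3 and RetSat ko 5.

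The serum amyloid genes were close to absent. Saa1 (ENSMUSG00000074115.6, chromosome 7, 46389921 to 46392404, minus strand) had 8, 14, 4, 14 and 12 counts in control libraries 1 to 5 and 44, 16, 32, 8 and 16 counts in RetSat ko libraries 1 to 5. These are 0.0900 ± 0.0342 and 0.205 ± 0.149 CPM (SD, n = 5 each). In 3 RetSat ko libraries it exceeded every control, and the groups overlapped. The log2 fold change was 1.15 ± 0.517 (SE, edgeR adjusted p = 0.401), and it was 0.70 without RetSat ko 1, 1.00 when the acinar-rich libraries were left out, 1.24 when the B cell-rich ones were and 1.45 when the adipocyte-rich ones were. Hepatocytes are the main source of serum amyloid in the acute phase. RetSat ko 5, the library with 140.4 CPM of hepatocyte transcripts, held 0.115 CPM of Saa1, within the control range.

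Saa2 (ENSMUSG00000057465.6, chromosome 7, 46401214 to 46403737, plus strand) had 6 counts over the 5 control libraries, in 2 of them, and 18 counts over the 5 RetSat ko libraries, in 3 of them. RetSat ko 5, the library with the most hepatocyte transcripts, held 10 of these. Saa4, another serum amyloid gene of liver, had 58 counts in that library (0.418 CPM) and at most 8 counts in any other. The part of hepatocyte RNA in the Saa1 and Saa2 counts was not tested. Saa1 and Saa2 transcripts are 94.4% identical, and 4.7% of the 75-base windows of Saa1 occur in Saa2, so counts of the pair could have been split or lost.

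Retnlb (ENSMUSG00000022650.8, chromosome 16, 48637219 to 48639255, plus strand), the goblet cell protein RELM-beta, had 10 counts over control and 10 counts over RetSat ko, in 2 libraries of each. Control 4 and 5 held 6 and 4 counts, and RetSat ko 1 and 3 held 2 and 8 counts. The markers of goblet cells summed to 6185 to 7486 CPM in control and 4797 to 9035 CPM in RetSat ko. The part of goblet cell number in the Retnlb level was not tested. Every count of Saa1, Saa2 and Retnlb was even, and 63.4 to 66.0% of all values from 1 to 20 in a library were even. Taking 2 counts as 1 read pair, the exact 95% Poisson interval of the Retnlb total was 3.25 to 23.3 counts in each group, and for Saa2 it was 1.24 to 17.5 counts in control and 8.23 to 34.2 counts in RetSat ko. These intervals cover counting error only, and no difference in either gene was detectable at this depth.

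Per kilobase of exon length in the files, Lypd8 (1458 ± 256 CPM per kb) and Reg1 (1167 ± 666) were the most abundant in control, without differing beyond their spread. Reg3a (330 ± 194), Reg3b (221 ± 129) and Reg4 (163 ± 26.6) followed, also within each other's spread, and then Reg3g (65.9 ± 25.5) and Pglyrp1 (15.7 ± 0.795; SD, n = 5 for each). Saa1, Retnlb and Saa2 were all below 0.04 CPM per kb of exon length. In RetSat ko, Reg3b (770 ± 560 CPM per kb) had rank 3 of the set and Reg3g (183 ± 112) rank 5. The exon lengths in the files exceed the longest protein-coding transcripts for several genes, among them Reg3g (2114 against 771 bases), Pglyrp1 (1837 against 694) and Reg3b (1142 against 783). Per kilobase of transcript, Reg3b stood at 323 ± 187 CPM per kb in control and 1123 ± 816 in RetSat ko. Reg3g stood at 181 ± 70.04 and 503 ± 308, and Pglyrp1 at 41.6 ± 2.10 and 56.1 ± 4.98. On that scale Reg3g had rank 5 in control and rank 4 in RetSat ko.

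The make-up of the chromosome 6 lectin RNA shifted from library to library. Of their summed CPM per kb of exon length, Reg1 took 62.4 ± 22.5% in control and 49.1 ± 24.97% in RetSat ko, and Reg3a took 21.1 ± 15.1% and 13.6 ± 8.80%. Reg3b took 12.7 ± 7.46% and 30.05 ± 17.5%, and Reg3g took 3.80 ± 1.27% and 7.26 ± 2.85% (SD, n = 5 each). Reg1 was the highest of the 4 in 7 libraries, Reg3a in control 3, and Reg3b in RetSat ko 4 and 5. With transcript lengths, the Reg3b share was 16.2 ± 8.61% in control and 33.3 ± 16.7% in RetSat ko, the Reg3g share was 9.16 ± 2.63% and 15.4 ± 4.91%, and Reg3b was the highest in RetSat ko 3 too. These shares overlapped between the groups and were not tested.

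A list of cytokine, receptor and signalling genes, chosen as upstream of Reg3 induction, was measured next. It was not sorted into activators and inhibitors, so its median does not give the state of a pathway. Of its 39 genes, 35 were tested, 17 with positive and 18 with negative log2 fold changes and a median of -0.036. None passed the adjusted threshold, and 7 had an unadjusted p under 0.05, all with lower levels in RetSat ko, where 5.45% of all tested genes were lower at that level. The receptor subunit Il17ra, which transmits interleukin 17, averaged 25.05 ± 0.969 CPM over controls and 21.4 ± 1.64 CPM over RetSat ko libraries (SD over 5 libraries), lower in every RetSat ko library. Its log2 fold change was -0.23 ± 0.0672 (SE, edgeR adjusted p = 0.291). Il22ra1, the epithelial receptor of interleukin 22, was at 65.5 ± 11.1 and 45.8 ± 15.1 CPM, with a log2 fold change of -0.52 ± 0.212 (SE, edgeR adjusted p = 0.371). RetSat ko 3, highest for Reg3g, held 38.0 CPM of Il22ra1, below every control. RetSat ko 4, highest for Reg3b, held 56.7 CPM, within the control range of 54.0 to 78.6 CPM. The part of these listed genes in the Reg3b and Reg3g differences was not tested.

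The Toll-interleukin adaptor Ticam1 (log2 fold change -0.21), the kinase Tyk2 (-0.19) and the NF-κB subunit Nfkb1 (-0.20) came next to Il17ra by p, with edgeR adjusted p of 0.327, 0.349 and 0.353. Il22 itself was at 0 counts in 8 libraries, at 0.031 CPM in control 2 and at 0.223 CPM in RetSat ko 3.

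Other defence genes were likewise below the threshold. Of 24, 16 were tested, 7 with positive and 9 with negative log2 fold changes and a median of -0.011, and none had an unadjusted p under 0.05. Itln1, the intelectin that binds microbial sugars and is a Paneth and goblet cell product, had the smallest p, averaging 276 ± 154 CPM over controls and 491 ± 220 CPM over RetSat ko libraries (SD over 5 libraries, log2 fold change 0.83, edgeR adjusted p = 0.440). Duox2, an epithelial oxidase that makes hydrogen peroxide, was at 2.28 ± 1.17 and 3.86 ± 1.56 CPM (log2 fold change 0.76, edgeR adjusted p = 0.487), and its maturation factor Duoxa2 at 0.849 ± 0.320 and 1.13 ± 0.511 CPM. Wfdc2, an epithelial protease inhibitor, was at 0.314 ± 0.0828 and 0.415 ± 0.155 CPM.

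Near relatives of the set were scarce. Of 10 genes, 6 were tested, 3 with positive and 3 with negative log2 fold changes, and none passed the adjusted threshold. Retn, the adipocyte hormone resistin and a relative of Retnlb, had the smallest p, 0.0162 before adjustment in edgeR. It was at 0.150 CPM or less in control and reached 0.437, 0.914 and 1.20 CPM in RetSat ko 3, 4 and 5 (log2 fold change 3.87 ± 1.33 (SE), edgeR adjusted p = 0.323). These 3 are adipocyte-rich libraries. Retn is itself one of the 8 adipocyte markers, 7 of which had positive log2 fold changes, with a median of 2.08 over the 8, none past the adjusted threshold and none at 0 in all libraries. Adipoq, which encodes adiponectin, held 0.148, 0.875, 2.57, 0 and 0.0368 CPM in control and 0.0392, 0.342, 3.59, 5.07 and 6.58 CPM in RetSat ko, high in the same 3 RetSat ko libraries. The part of adipocyte RNA in the Retn level was not tested. Reg2, another Reg family gene, averaged 0.217 CPM in control and 0.531 CPM in RetSat ko and was highest, at 1.85 CPM, in the acinar-rich RetSat ko 2. Retnla and Saa3 averaged under 0.3 CPM in both groups.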

How the data were processed

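RNA was sequenced from 10 jejunum libraries, 5 of each genotype given in the labels. The deposited values are raw counts per gene. Per the submitters' processing notes, Trimmomatic, STAR and GRCm39 were used. Counting was done with featureCounts 2.0.1 over GENCODE M28 exons, without strand and to the gene of largest overlap, per the file headers. The headers show no option for read pairs, so both mates of a pair can count. No exon of the 10 genes overlaps another gene's exon.

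Symbols matched 52081 of 55414 identifiers (94.0%). In R 4.3.3, counts were filtered with filterByExpr, scaled by TMM and compared with edgeR 4.0.16 (robust quasi-likelihood F-test, without covariates). Adjusted p-values are Benjamini-Hochberg values over the 18654 genes tested, and genes under 0.05 were called. Correlations use log2 CPM with a prior count of 2. Promoter sequences are from RefSeq (GRCm38.p6), and transcripts from GENCODE M21.

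The alternatives tried were DESeq2 1.42.0, limma-voom (limma 3.58.1) with or without sample weights, upper-quartile or RLE factors, all genes with a count, genes at 1 CPM or more in at least 5 libraries, non-robust estimates, a replicate block, a prior count of 0.5 and leaving out each library. Fits without the acinar-rich, B cell-rich or adipocyte-rich libraries and levels and shares per transcript length were added after seeing the data. The genes of the set and all lists were chosen with earlier results of these data known. Named genes are the 10 genes, Retsat, up to 4 per pathway list by p and up to 3 per marker list by level. Up to 3 genes of highest correlation with each of the 7 genes of at least 1 CPM are named too, but none for Reg4. Car1, Fabp6, S100a8, S100a9, Il22, Il22ra1, Stat3, Adipoq and Saa4 were named outside this rule, after their values were seen. A gene that the rule takes is not reported here.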

Additional observations from a re-analysis of the deposited data

Results flagged for a closer look

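In each group of 5 libraries, a value was noted when its gap to the nearest other library exceeded 0.71 of the group's range, Dixon's 95% critical value. This happened in 3 of the 20 groups examined for the 10 genes. The critical value assumes independent normal values. Groups of few counts and genes measured in the same libraries do not meet this, so no expected number is given. Reg4 was at 120.2 CPM in control 4, with the other controls at 171 to 191 CPM. Reg4 was at 207 CPM in RetSat ko 3, with the other RetSat ko libraries at 164 to 172 CPM. Retnlb was at 0.0686 CPM in RetSat ko 3, which is 8 counts, with the others at 0 to 0.0196 CPM.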

How the results depend on the processing

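The number of genes of the set past the threshold was 0, and it became 1 (Pglyrp1) with DESeq2, with limma-voom and sample weights and without RetSat ko 1, so that it ranged from 0 to 1 over single omissions. Over all 22 alternatives Reg3b lay between 0.74 and 2.44 (log2, adjusted p from 0.0978 to 0.999), Reg3g between 0.58 and 2.07 (0.0761 to 0.999) and Pglyrp1 between 0.36 and 0.50 (0.000296 to 0.999), each lowest without the adipocyte-rich libraries. The sign of genes near 0 changed. Lypd8 was 0.013 with upper-quartile factors, 0.0049 with the replicate block, 0.011 with limma-voom, 0.058 without acinar-rich libraries, 0.053 without B cell-rich ones, and -0.10 to 0.057 over single omissions. Reg1 was -0.28 and Reg3a 0.056 with sample weights, with ranges of -0.26 to 0.31 and -0.37 to 0.22 over single omissions. Reg4 was -0.093 without the B cell-rich libraries, -0.0017 without the adipocyte-rich ones and -0.028 to 0.12 over single omissions. The causes were not tested. The count over all genes was 6, against 123 with DESeq2, 846 without RetSat ko 1, 10 with sample weights, 9 without the filter 4 without the B cell-rich libraries and 2 without the adipocyte-rich ones. A prior count of 0.5 changed the sign of none of the 21 correlations between the genes. Libraries with the same replicate number did not deviate together (r from -0.278 to -3.68e-04 over 5 pairs, and 0 controls correlated best with their own number). With the replicate block, 4 genes and 0 genes of the set were called.

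At 102844680 counts or more per library, Saa2 and Retnlb had too few counts to be tested. Saa1 was tested at 4 to 44 counts per library, with a pooled within-group SD of 0.81 on the log2 scale.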
